A study of Mus musculus with 57 samples.

Results

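The cytosolic ribosomal protein genes encode the protein parts of the ribosomes that translate nuclear messenger RNAs. They were taken by symbol, as the protein-coding mouse genes named Rpl or Rps plus a number (with P proteins and lettered copies) together with Rpsa, and 83 genes met the rule, 32 of the small subunit and 51 of the large subunit. The gland and end bud tables held them among 35275 genes, the TORIN1 table among 54532 and the Erbb3 table among 53608, and a shorter culture table of 5171 genes held 68 of them. Pseudogenes and the Rps6k kinases were left out, and so were 6 symbols of the same form that the annotation gives as pseudogenes (Rps3a2, Rps3a3, Rps4l, Rps12l1, Rpl6l and Rpl32l).

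RNA-seq read counts were compared in 57 samples of mouse salivary gland. Freshly dissected, untreated wild-type glands were taken at E13, E14, E15, E16, E17 and E18, with 4 samples (A to D) at each embryonic day. Epithelial end buds of wild-type glands, kept for 4 h with neuregulin 1 (NRG1) or untreated, gave 3 NRG1 and 3 control samples at E13, and 3 NRG1 and 2 control samples (B and C) at E14. The E14 stage comes from the sample titles. The stage labels of these samples give E13 plus 4 h, or E13 plus 72 h for NRG1 sample C. Wild-type E13 epithelium kept for 72 h with TORIN1, an inhibitor of the mTOR kinase, or with the solvent DMSO gave 4 samples each. Untreated E16 glands of Erbb3 knockout (KO) and of wild-type (WT) genotype gave 4 samples each. ERBB3 is a receptor for NRG1, and the labels do not say how the gene was deleted or in which cells. Wild-type E13 epithelium cultured with NRG1 gave 2 samples each on days 2, 3 and 4. The labels do not say whether samples of a group came from separate animals or cultures, and the p-values therefore reflect only how much these samples varied, which may be technical in part.

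Ribosomal proteins are made in nearly equal numbers, since each ribosome holds a single copy of most of them, and their messenger RNAs are among the most abundant in growing cells. Many of these messengers begin with a cytosine followed by an unbroken run of pyrimidines, the 5' terminal oligopyrimidine (TOP) motif. Through this motif the kinase mTOR and the RNA-binding protein LARP1 control how well the messengers are translated, and LARP1 also stabilises them. The counts below measure messenger RNA amounts and say nothing of how much of it was translated.

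RefSeq promoter entries (GRCm38.p6) matched 63 of the 83 genes by symbol or gene ID, with 75 annotated starts. A C at the annotated start followed by at least 4 further C or T bases stood at 13 of the 75 starts (17.3%), and at 2.17% of the 20075 starts of other protein-coding genes. The letters CCGGAAG, searched on both strands in the 300 bases from 250 before to 50 after the start, were found in 36% of the members' entries and in 11.8% of the other entries. A match describes the letters of the annotated window, and annotated starts can lie some bases from the start used in this tissue. The sequences below are 30 bases before and 20 bases from the start on, 5' to 3' on the coding strand. Capitals mark the unbroken run of C and T from the start on. The first group shows genes with the C and T run, among them Rps6, Rps27, Rps21 and Rpl38, whose values are given below.
Rps6, chr4:86857348-86857397, minus strand: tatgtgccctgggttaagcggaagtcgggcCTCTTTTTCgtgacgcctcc
Rps18, chr17:33955646-33955695, minus strand: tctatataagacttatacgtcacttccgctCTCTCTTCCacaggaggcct
Rps27, chr3:90213629-90213678, minus strand: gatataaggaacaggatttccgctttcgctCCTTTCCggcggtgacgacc
Rplp2, chr7:141447621-141447670, plus strand: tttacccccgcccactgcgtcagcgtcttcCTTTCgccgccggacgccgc
Rps21, chr2:180257349-180257398, plus strand: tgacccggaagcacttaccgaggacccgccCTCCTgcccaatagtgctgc
Rpl38, chr11:114668550-114668599, plus strand: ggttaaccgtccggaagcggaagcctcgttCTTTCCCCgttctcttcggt
Rpl15, chr14:18270967-18271016, minus strand: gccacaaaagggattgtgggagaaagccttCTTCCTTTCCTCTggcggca
The next group shows the paralog genes and other genes treated below whose annotated starts lack the run.
Rps27l, chr9:66946056-66946105, plus strand: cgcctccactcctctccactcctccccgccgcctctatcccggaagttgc
Rpl22, chr4:152324406-152324455, plus strand: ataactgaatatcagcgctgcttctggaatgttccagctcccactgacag
Rpl22l1, chr3:28805478-28805527, plus strand: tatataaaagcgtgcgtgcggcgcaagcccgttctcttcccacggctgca
Rpl7l1, chr17:46782637-46782686, minus strand: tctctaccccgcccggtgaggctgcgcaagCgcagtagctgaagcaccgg
Rplp0, chr5:115559437-115559486, plus strand: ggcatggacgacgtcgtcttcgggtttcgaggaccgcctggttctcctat
Rpsa, chr9:120127736-120127785, plus strand: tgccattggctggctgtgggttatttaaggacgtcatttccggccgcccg
Rps27 has the run and its paralog Rps27l has none at the annotated start, and neither has Rpl22l1. The window shown for Rpl22 lies wholly upstream of the gene, which begins at position 152325742 in the gene annotation. It therefore cannot show whether the Rpl22 messenger has the run.

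The members have short transcripts, with a median length of 774 bases (range 345 to 5130). Of the 83 members, 63 were under 1000 bases, against 14.08% of other protein-coding genes, whose median was 2316. This matters below because other short genes often moved with them. Per 1000 bases of transcript, the median member stood at 1280 CPM averaged over the gland samples (lower and upper quartiles 792 and 1692). CPM is the usual count per unit of library size, here with library sizes scaled by the trimmed mean of M-values (TMM). The highest per length were Rplp1, of the stalk that recruits elongation factors, at 5548 CPM per 1000 bases, then Rpl41 at 3268, Rps27 at 3252, Rpl13a at 2715 and Rps24 at 2650. The lowest were Rpl10l at 0, Rpl3l at 0.3, Rpl39l at 0.7, Rpl24 at 1.1 and Rpl35 at 41.7. In the mouse, Rpl10l and Rpl39l are known from male germ cells and Rpl3l from heart and skeletal muscle. Rpl24, a core protein, had 3 to 28 reads in each gland library. The other paralogs were well detected per length, Rps27l at 363, Rpl22l1 at 245 and Rpl7l1 at 71.2 CPM per 1000 bases.

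Levels are compared within a table only. Between the tables other than that of the culture, 9 members differed by over 5-fold in mean CPM, among them Rpl13a, Rps10 and Rps2. They include Rpl10l and Rpl39l, which had hardly any reads. Rpl24, not among them, had 93.3 CPM in culture and 0.697 to 2.53 CPM in the other tables. Ribosomal protein genes have many near-identical processed copies in the genome, and the sources used here do not say how reads matching several places were counted, so low values such as those of Rpl24 and values of single members that jump between groups (Rpl26, Rps3a1 and Rps2 below) are uncertain. Total counts were 13033868 to 25935489 in glands, 16027377 to 26306020 in end buds, 16318997 to 19671988 in the TORIN1 set and 8913271 to 11890488 in the Erbb3 set. The culture table summed to 11190476 to 15400456 but lists part of the genes, so its sums are not library depths. Members passing a filter on low counts numbered 81 in glands, 80 in end buds, 80 in the TORIN1 set, 79 in the Erbb3 set and 68 in culture. Rpl10l and Rpl3l were tested in no table.

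Several libraries stood apart from their group in these genes. In E18 gland D, 76 of 81 tested members were higher than in E18 A to C, with a median log2 difference of 1.07, and mitochondrially encoded genes held 0.764% of the counts, against 1.40 to 1.57% in E18 A to C. In TORIN1 sample A, 80 of 80 members were higher than in TORIN1 B to D, with a median of 0.88, and mitochondrially encoded genes held 1.22%, against 1.80 to 1.88%. E14 gland A lay below E14 B to D in 78 of 81 members (median -0.49), and E15 gland B below E15 A, C and D in 68 of 81 (median -0.46). These last libraries had the highest mitochondrially encoded shares of their groups, 2.12% and 2.88%. E17 gland C lay above E17 A, B and D in 77 of 81 members (median 0.37), and it too had the highest such share of its group, 2.24%. E17 gland A lay below E17 B to D in 80 of 81 (median -0.29). In the Erbb3 set the WT glands were spread: WT 2 was above the other WT samples in 79 of 79 members (median 0.44), while WT 3 and WT 4 were lower, with medians of -0.40 and -0.31. WT 1 had the largest mitochondrially encoded share of that set, 2.67%, and there 57 of 79 members were higher than in the other WT samples and 22 lower, with a median of 0.08 in the members with shorter transcripts and of 0.28 in the others. Across members, the difference of a library from its group ran with transcript length in a varying degree, as Spearman's rho over 81 members was 0.50 for E15 B, 0.41 for E14 A and -0.32 for E18 D. These are descriptions across genes that share a library. Results that rest on these libraries are given with and without them, for E17 A and C only within the ranges over single libraries left out. The part of these library differences in the results was not tested.

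**Figure D1:**
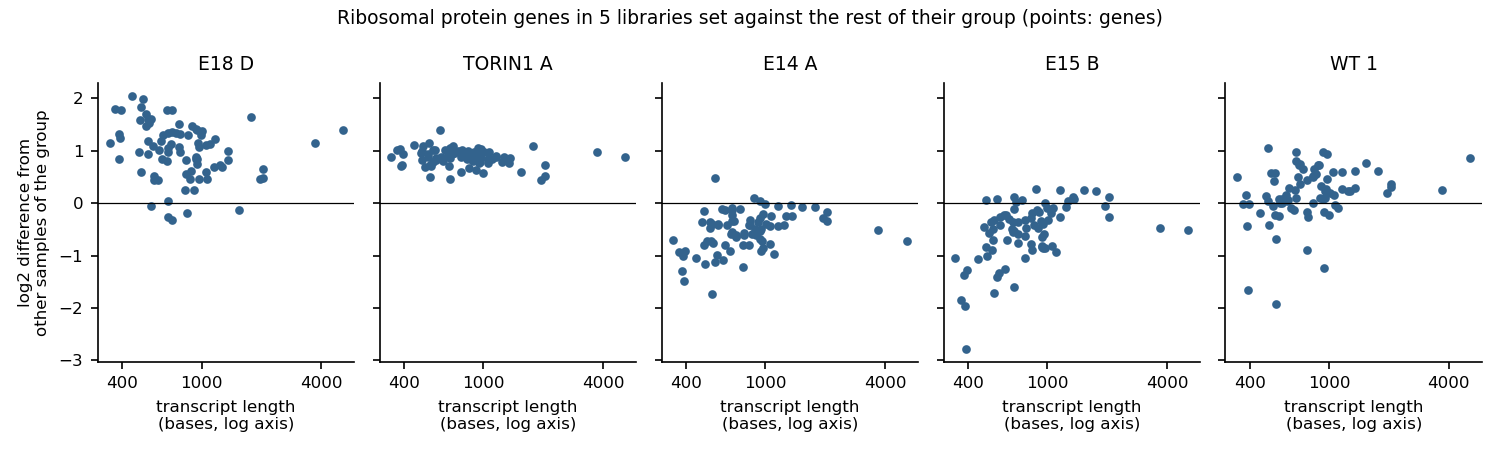
Each point is a member, placed by its transcript length in bases (log axis) and by its log2 difference from the mean of the other samples of the group, for E18 D, TORIN1 A, E14 A, E15 B and WT 1. E18 D and TORIN1 A lie above the zero line with medians of 1.07 and 0.88, E14 A and E15 B lie mostly below it, and in WT 1 57 of 79 members lie above it.

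Over glands, end buds and epithelium the members together held 3.98 to 18.2% of all counts. In glands the share was 5.74 to 6.25% at E13, 3.98 to 5.97% at E14, 7.22 to 9.83% at E15, 8.42 to 9.56% at E16 and 7.92 to 11.1% at E17. At E18 it was 8.77, 7.63 and 7.98% in A to C and 18.2% in D. The 4 samples of E15 lie above the 4 of E14, and from E15 to E17 the ranges overlap. Secretory products of the acinar cells held 12.6 to 15.3% of the counts at E18 and at most 0.00381% at E13. With these left out, the members held 8.99 to 10.4% in E18 A to C and 20.8% in D. Small and large subunit genes moved together, with 2.94 to 3.45% and 4.69 to 5.31% of the counts in E18 A to C. Because each library is scaled to its own total, a change of these genes is a change relative to the other messengers of the sample, and in bulk tissue more or fewer cells of a type cannot be told apart from more or less RNA per cell.

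**Figure D2:**
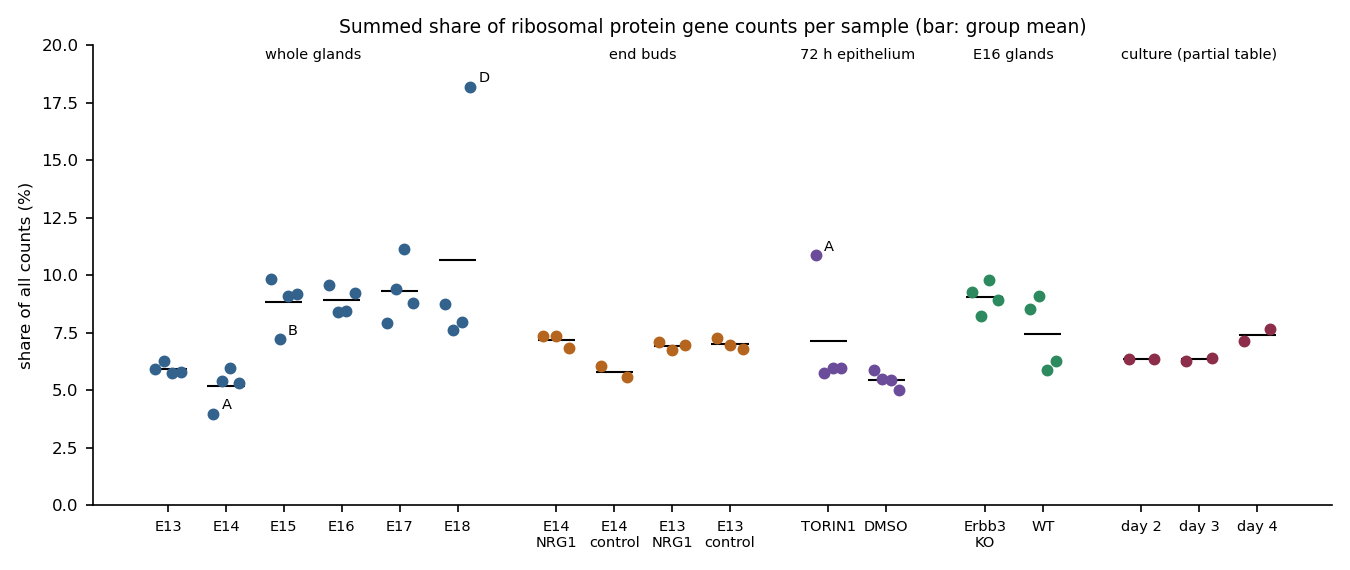
The summed share of counts of the members, in percent of all counts of each sample, is plotted for every group, with points for samples and a bar for the group mean. The share lies at 3.98 to 6.25% in E13 and E14 glands and above 7% in the later glands, and the labelled points E18 D (18.2%) and TORIN1 A (10.9%) stand far above their groups.

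E18 glands against E13 glands gave the widest difference in development. Of 81 tested members 76 rose and 1 fell, where 36.5% of all tested genes rose and 36.2% fell by the same rule (edgeR's quasi-likelihood test, adjusted p under 0.05). The median log2 fold change of the members was 1.20, against 0.01 over all genes, and 31 of 32 small subunit and 45 of 49 large subunit members rose. Without E18 D, 69 rose and 2 fell, and the median was 0.68. With library sizes scaled on other genes with short transcripts, which shifts the median over all genes by -0.60, 50 rose and 2 fell. In that fit 3079 of all 16521 genes rose and 8726 fell. Rplp0, the base of the stalk, had 4500, 3792, 3866 and 8933 CPM in E18 glands and 1893, 1968, 1807 and 1888 CPM in E13 glands. All E18 samples lie above all E13 samples, with a log2 fold change of 1.48 ± 0.20 (SE, adjusted p = 3.86e-07) and of 1.10 without E18 D. Its partner Rplp1 had 4120, 3372, 3520 and 16416 CPM in E18 glands and 1581, 1569, 1455 and 1454 CPM in E13 glands. The log2 fold change was 2.18 ± 0.40 (adjusted p = 5.49e-05), and sample D carried much of it, as it was 1.28 without D.

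Other members with the largest rises were Rps27l, Rps14, Rpl35a and Rplp2. Rps27l, the paralog of Rps27 and in human cells a target of p53, had 325, 261, 296 and 709 CPM in E18 glands and 96.2, 103, 89.7 and 88.6 CPM in E13 glands. It rose by 2.07 ± 0.24 on the log2 scale (adjusted p = 7.8e-08) and by 1.64 without D. Rps27 itself rose by 1.13 ± 0.30, and by 0.60 without D. The log2 fold changes of Rps14 (1.77 ± 0.37), Rpl35a (1.75 ± 0.41) and Rplp2 (1.75 ± 0.42) were 0.92, 0.76 and 0.71 without D, with all 3 still past the threshold. Rps6, whose protein is phosphorylated by the S6 kinases downstream of mTOR, rose by 0.91 ± 0.15 and by 0.68 without D. Rpl5 (0.95 ± 0.15) and Rpl11 (0.84 ± 0.24), which with the 5S RNA can bind the p53 regulator MDM2, rose too, as did Rpsa (1.25 ± 0.31), Rpl10a (1.23 ± 0.21) and Rps19 (1.04 ± 0.31), whose gene is mutated in human Diamond-Blackfan anaemia. Without D the values were 0.71 for Rpl5, 0.46 for Rpl11, 0.46 for Rpsa and 0.77 for Rpl10a, all past the threshold, and Rps19 missed it (0.55, adjusted p = 0.0703).

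A few members did not follow. Rpl22l1, the paralog of Rpl22, had 123, 91.1, 120 and 315 CPM in E18 glands and 145, 161, 134 and 113 CPM in E13 glands. Its ranges overlap (log2 fold change 0.23 ± 0.39, adjusted p = 0.611), and without D the value was -0.31 (adjusted p = 0.472), while Rpl22 rose by 0.84 ± 0.17 and by 0.53 without D. Rpl7l1, a paralog of Rpl7, had 113, 91.3, 104 and 177 CPM in E18 glands and 154, 147, 151 and 143 CPM in E13 glands. Samples A to C lie below all E13 samples and D above them, so that it missed the threshold with D (-0.29 ± 0.13, adjusted p = 0.0547) and fell without D (-0.53, adjusted p = 5.54e-06), whereas Rpl7 rose by 1.27 ± 0.24 and by 0.71 without D. Rps3a1 was the member that fell, with 299, 263, 268 and 476 CPM in E18 glands and 839, 686, 746 and 607 CPM in E13 glands (-1.14 ± 0.23, adjusted p = 0.000142).

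Other gene groups moved with the members between E13 and E18. Of 1133 other genes with transcripts under 1000 bases 632 rose and 117 fell, with a median of 0.77. Of 76 mitochondrial ribosomal protein genes, which serve the separate ribosomes of mitochondria, 40 rose and 5 fell, with a median of 0.45. Genes of ribosomal or ribosome-bound proteins outside the naming rule rose too, with Rpl36al at 1.81 ± 0.32, Fau at 1.65 ± 0.35 and Rack1 at 1.38 ± 0.23. Of 21 translation factors and other messengers known to carry TOP motifs, 14 rose and 4 fell. Tpt1 (1.27 ± 0.16), Eef1b2 (1.10 ± 0.26) and Naca (1.09 ± 0.20) led the rises, while Hnrnpa1 (-0.96 ± 0.10) and Npm1 (-0.84 ± 0.11), a nucleolar protein of ribosome assembly, fell. Of 7 chaperones of ribosomal proteins 6 fell and 1 rose, Ltv1, known from assembly of the yeast small subunit, by -1.02 ± 0.07. All 7 epithelial markers rose and 8 of 9 mesenchyme markers fell. Epithelial markers held 0.298 to 0.403% of the counts at E18 against 0.0805 to 0.0882% at E13. For mesenchyme markers the shares were 0.315 to 0.967% against 1.42 to 1.47%. Cell cycle markers held 0.0679 to 0.0864% at E18 and 0.114 to 0.122% at E13, without overlap. The part of these markers in the members' rise was not tested.

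Between consecutive days the step with many calls was E15 against E14. Of 81 members 67 rose and none fell, where 24.7% of all genes rose and 25% fell, and none fell at an unadjusted p under 0.05 or by DESeq2. The members' median log2 fold change was 0.75, against 0.06 over all genes. Small subunit genes (26 of 32) and large subunit genes (41 of 49) were called to a like extent. Rplp0 had 3259, 3236, 2959 and 3001 CPM in E15 glands and 1559, 1747, 1973 and 1867 CPM in E14 glands, without overlap (0.80 ± 0.19, adjusted p = 0.00156). Rps6 had 1173, 1327, 1094 and 1070 CPM in E15 glands and 719, 627, 770 and 652 CPM in E14 glands, again without overlap (0.75 ± 0.15, adjusted p = 0.000215). The largest rises above 10 CPM were those of Rps29 (1.33 ± 0.48), Rps28 (1.23 ± 0.36), Rps18 (1.08 ± 0.31), Rpl35 (1.04 ± 0.29) and Rps27 (1.01 ± 0.30). Rps29 shows the weight of the libraries that stood apart, with 890, 131, 999 and 862 CPM in E15 glands and 115, 286, 515 and 232 CPM in E14 glands. The low E15 value is that of B and the lowest E14 value that of A. Of the paralogs Rps27l rose by 0.74 ± 0.23, while Rpl22l1 (0.39 ± 0.39) and Rpl7l1 (0.26 ± 0.13) missed the threshold, as did Rplp1 (0.88 ± 0.39) and Rpsa (0.71 ± 0.31), and Rpl39l (3.23 ± 0.71) was called at under 3 CPM in every library.

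The count at this step depended on the libraries and on the scaling. Without E14 A 40 members rose, without E15 B 70, and without both 51, with a median of 0.72, where 19.1%, 23.2% and 18.1% of all genes then rose. Other short genes rose in 547 of 1133 cases with a median of 0.56, and mitochondrial ribosomal protein genes in 46 of 76 with a median of 0.52. With library sizes scaled on the other short genes, which shifts the median over all genes by -0.55, 17 members rose and 2 fell. In that fit 827 of all 16521 genes rose and 7661 fell. Erythroid genes held 0.488 to 1.08% of the counts at E15 and 0.142 to 0.343% at E14, without overlap. Epithelial markers held 0.217 to 0.265% at E15 and 0.136 to 0.152% at E14, with 5 of 7 rising, and mesenchyme markers 0.849 to 1.03% at E15 and 1.30 to 1.35% at E14, with 6 of 9 falling. Of 8 macrophage markers 7 rose, as did 4 of 7 skeletal muscle markers and 9 of 12 acinar secretory products. The part of these cell types in the members' values was not tested.

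The other steps moved few members. In E14 against E13 glands no member rose and Rpl26 fell, where 11.8% of all genes rose and 7.63% fell. The members' median was -0.22, and -0.10 without E14 A. By edgeR 0 rose and 5 fell at an unadjusted p under 0.05, and DESeq2 likewise called 0 higher. In E16 against E15 glands 2 members rose (background 12.2%), Rps2 by 0.84 ± 0.27 and Rps27l by 0.65 ± 0.23, and the median was 0.08, which was 0.0035 without E15 B. In E17 against E16 glands 2 rose and 1 fell (background 3.39% and 2.11%), with a median of 0.16. In E18 against E17 glands 2 rose and 1 fell (background 5.91% and 7.09%), with a median of 0.41 that was -0.09 without E18 D. The calls of the step to E17 were lost in part or whole without any 1 library, and those of the step to E16 without E15 B, C or D or E16 A, C or D.

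Of the members called at these steps, Rps3a1, Rps2 and Rpl26 had counts that jumped by stage. Rps3a1 had 778, 1233, 1290 and 1103 CPM in E17 glands and 585, 584, 593 and 740 CPM in E16 glands (0.82 ± 0.23, adjusted p = 0.0381). In E18 glands it had 299, 263, 268 and 476 CPM, below every E17 sample (-1.75 ± 0.24, adjusted p = 2.17e-05). Rps2 had 560, 737, 949 and 631 CPM in E17 glands and 1464, 1069, 1392 and 1570 CPM in E16 glands (-0.93 ± 0.27, adjusted p = 0.0411). These genes went opposite ways at the same step. Rpl26 had 17.1, 17.9, 19.97 and 18.2 CPM in E14 glands and 207, 171, 58.7 and 177 CPM in E13 glands (-3.07 ± 0.44, adjusted p = 3.58e-05), and 337, 319, 305 and 544 CPM in E18 glands against 156, 27.7, 34.0 and 107 CPM in E17 glands (2.21 ± 0.42). It also varied within E13 and within E17 by over 3-fold. In E18 against E17 glands Rpl30 rose by 1.14 ± 0.31 (adjusted p = 0.0182), and without E18 D its value was 0.64 (adjusted p = 0.115).

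**Figure D3:**
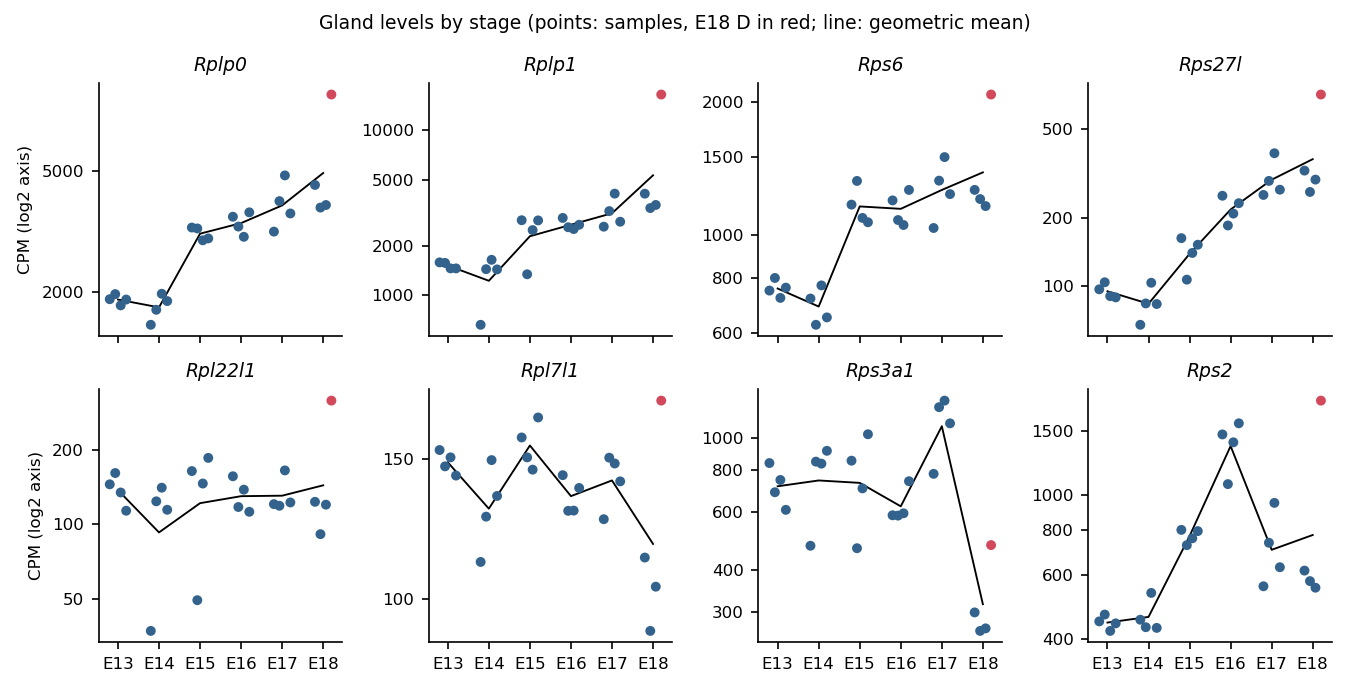
Gland levels of 8 members in CPM (log2 axis) are plotted by embryonic day, with 4 samples a day as points, E18 D in red and the geometric mean as a line. The geometric means of Rplp0, Rplp1, Rps6 and Rps27l are higher on every day from E15 on than at E14, Rpl22l1 is low in E14 A and E15 B, and among the geometric means Rps3a1 is lowest at E18 and Rps2 highest at E16.

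NRG1 for 4 h left the members' messengers nearly as in controls in E13 end buds. Of 80 tested members 2 rose and 1 fell, where 23.1% of all genes rose and 19.3% fell, and the median was 0.02. The summed share was 7.11, 6.73 and 6.97% with NRG1 and 7.25, 6.98 and 6.79% in controls, and these overlap. The members that rose were paralogs. Rpl7l1 had 143, 146 and 142 CPM with NRG1 and 95.7, 91.9 and 90.6 CPM in controls, without overlap (0.63 ± 0.07, adjusted p = 3.36e-06). Rps27l had 111, 90.1 and 90.5 CPM with NRG1 and 75.4, 72.4 and 73.0 CPM in controls (0.40 ± 0.08, adjusted p = 0.00162). Their partners Rpl7 (-0.01 ± 0.06) and Rps27 (-0.07 ± 0.11) missed the threshold. Rpl22l1 had 122, 114 and 118 CPM with NRG1 and 121, 125 and 135 CPM in controls (-0.10 ± 0.10, adjusted p = 0.423). Rps28 fell by 0.32 ± 0.12 on the log2 scale (adjusted p = 0.0437), and without control A, control B or NRG1 B no member fell. With library sizes scaled on other short genes 5 members fell, where 3829 of all 16180 genes fell and 2937 rose.

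Genes around the ribosome did change in the same E13 end buds. Of 76 mitochondrial ribosomal protein genes 42 rose and 2 fell, with a median of 0.28. Of 7 chaperones of ribosomal proteins 4 rose, with Grwd1, whose yeast counterpart Rrb1 is a chaperone of Rpl3, at 1.70 ± 0.09, Ltv1 at 1.18 ± 0.10, Heatr3 at 0.68 ± 0.10 and Bccip at 0.51 ± 0.07. Of 11 regulators of TOP translation and mTOR 5 rose and 1 fell. Eif4ebp1, an mTOR substrate that represses translation, rose by 1.79 ± 0.11 and Larp1 by 1.04 ± 0.07, while Eef2k, the kinase that inhibits elongation factor 2, fell (-0.90 ± 0.11). Of the 21 translation factors and other TOP messengers 4 rose.

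In E14 end buds the same treatment was accompanied by higher levels of most members. Of 80 members 65 rose and none fell, where 20.2% of all genes rose and 16% fell, and none fell at an unadjusted p under 0.05 or by DESeq2. They had a median of 0.38 against 0.02 over all genes. The summed share was 7.34, 7.35 and 6.83% with NRG1 and 6.05 and 5.56% in controls. All 3 NRG1 samples lie above both controls. Without control C 42 members rose and without control B 66, where 13.9% and 23.2% of all genes then rose. Each of these fits holds 1 control sample at E14, which is assumed to vary like the samples of the other groups, as is the 1 sample left wherever an E14 control or a culture sample is left out. Rplp0 had 2881, 2761 and 2689 CPM with NRG1 and 2477 and 2099 CPM in controls (0.28 ± 0.08, adjusted p = 0.0169). Rps6 had 986, 980 and 994 CPM with NRG1 and 865 and 777 CPM in controls (0.27 ± 0.07, adjusted p = 0.0107). Rplp1 (0.41 ± 0.09), Rplp2 (0.41 ± 0.08), Rps19 (0.37 ± 0.09), Rpl11 (0.32 ± 0.08) and Rpl5 (0.28 ± 0.08) rose as well. Rpsa (0.16 ± 0.10), Rpl10a (0.21 ± 0.08), Rpl7 (0.13 ± 0.06) and Rpl3 (0.10 ± 0.07) missed the threshold.

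The largest rises in E14 end buds were those of Rps27, Rps27l, Rpl35a, Rpl37a and Rpl38. Rps27 had 747, 799 and 574 CPM with NRG1 and 398 and 377 CPM in controls (0.87 ± 0.12, adjusted p = 0.000129). Rps27l had 115, 113 and 97.7 CPM with NRG1 and 58.6 and 63.0 CPM in controls (0.84 ± 0.10, adjusted p = 2e-05). Here Rps27 and its paralog both rose, without overlap of the groups. Rpl7l1 had 137, 138 and 132 CPM with NRG1 and 97.9 and 81.0 CPM in controls (0.60 ± 0.08, adjusted p = 3.63e-05), close to its log2 fold change at E13. Rpl22l1 had 124, 139 and 107 CPM with NRG1 and 86.6 and 69.8 CPM in controls (0.66 ± 0.11, adjusted p = 0.000408), and Rpl22 rose by 0.28 ± 0.07. Rpl35a, Rpl37a and Rpl38 rose by 0.74 ± 0.13, 0.72 ± 0.10 and 0.71 ± 0.11.

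Other short genes rose with NRG1 at E14 in 379 of 1048 cases and fell in 40, with a median of 0.26. Mitochondrial ribosomal protein genes rose in 58 of 76 cases with a median of 0.42, and Rpl36al, Fau and Rack1 rose as well. With library sizes scaled on the other short genes, which shifts the median over all genes by -0.31, 17 members rose and 4 fell. In that fit 1152 of all 16180 genes rose and 6190 fell. Of the 7 chaperones 4 rose, led by Grwd1 (1.5 ± 0.11) and Ltv1 (1.16 ± 0.11), and of the 11 regulators 4 rose and 4 fell, with Eif4ebp1 at 1.40 ± 0.13 and Larp1 at 0.78 ± 0.08. Of the 21 translation factors and other TOP messengers 8 rose and 1 fell.

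**Figure D4:**
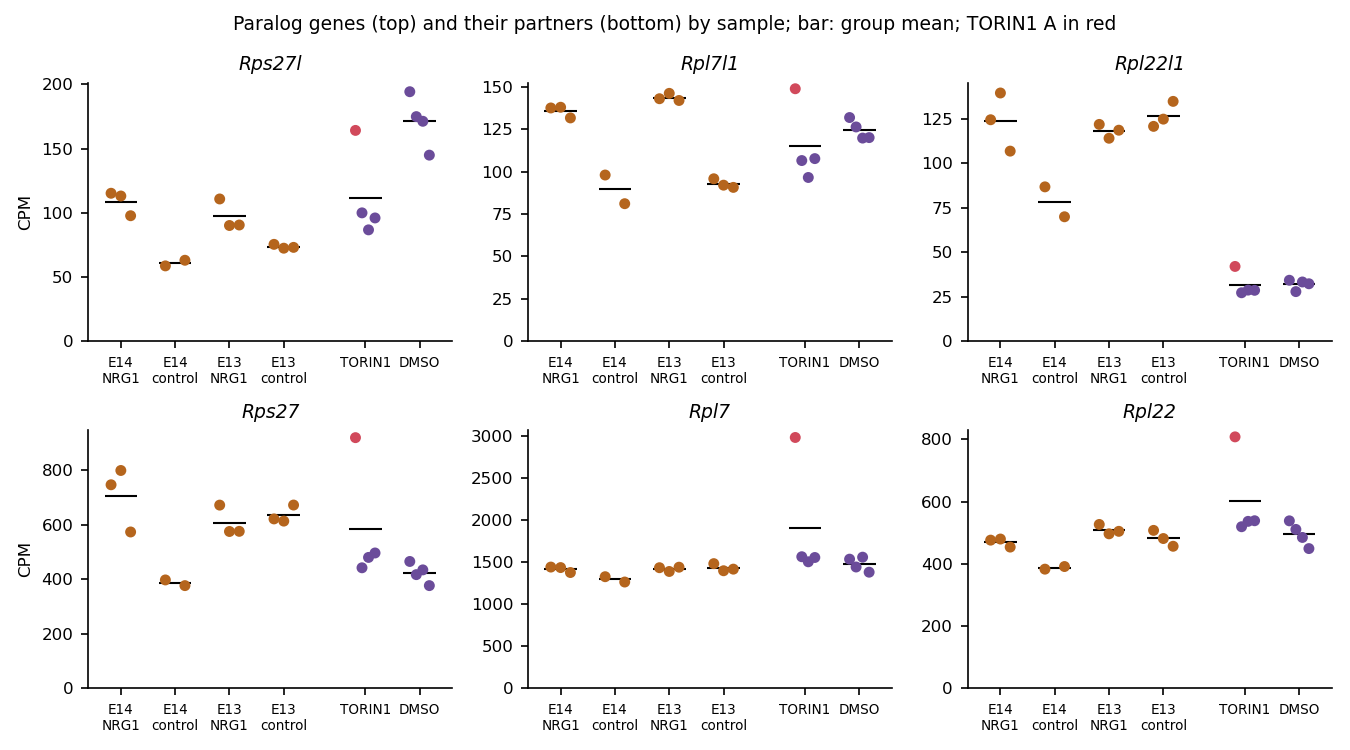
Levels in CPM of the paralogs Rps27l, Rpl7l1 and Rpl22l1 (top) and of their partners Rps27, Rpl7 and Rpl22 (bottom) are plotted for each end bud and 72 h epithelium sample, with a bar for the group mean and TORIN1 A in red. Rpl7l1 and Rps27l are higher with NRG1 than in controls at both E14 and E13 without overlap, while for Rps27 and Rpl22l1 the groups are apart at E14 and overlap at E13, and 3 of the 4 TORIN1 samples lie below the DMSO samples for Rps27l and Rpl7l1.

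The difference of the NRG1 effect between the stages was tested directly. In E14 minus E13 end buds 16 of 80 members had a higher NRG1 effect and none a lower one, where 0.735% of all genes were higher and 1.53% lower. None was lower at an unadjusted p under 0.05 or by DESeq2 either, and the median difference was 0.34 on the log2 scale. The largest were Rpl35a (0.98 ± 0.17, adjusted p = 0.0137), Rps27 (0.93 ± 0.16, adjusted p = 0.0097), Rpl39 (0.79 ± 0.14, adjusted p = 0.00838), Rpl22l1 (0.76 ± 0.15, adjusted p = 0.0165) and Rps21 (0.75 ± 0.14, adjusted p = 0.0164). For Rpl7l1 the difference was -0.03 ± 0.10 (adjusted p = 0.923) and for Rps27l 0.44 ± 0.13 (adjusted p = 0.0984). Among the 40 members with shorter transcripts 14 were called, with a median of 0.44, and among the 40 with longer ones 2, with a median of 0.26. Other short genes had a median of 0.21 and 36 of 1048 were higher, while by edgeR 0 of 76 mitochondrial ribosomal protein genes were called, with 15 higher and 1 lower at an unadjusted p under 0.05. The count of 16 was 42 without E14 control B, 10 without E13 control A or without E13 control B, 6 without E13 NRG1 C or without E14 NRG1 B, and 4 without E13 NRG1 B. The fits without a library are given with no share over all genes, so their counts show only how the number moved. DESeq2 called 33 members higher, where 239 of all 13248 genes with an adjusted p were higher and 562 lower. With library sizes scaled on other short genes 10 members were higher and 1 lower, where 94 of all 16180 genes were higher and 2474 lower.

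Control end buds themselves differed by stage. In E14 against E13 controls 50 of 80 members fell and none rose, where 9.2% of all genes fell and 14.4% rose. None rose at an unadjusted p under 0.05 or by DESeq2, and the median was -0.30. Rpl35a had 261 and 188 CPM in E14 controls and 409, 431 and 399 CPM in E13 controls (-0.88 ± 0.13, adjusted p = 0.000617). Rps27 (-0.72 ± 0.12), Rpl22l1 (-0.70 ± 0.11), Rps14 (-0.58 ± 0.10) and Rps21 (-0.55 ± 0.11) followed, with the values of E14 controls below those of E13 controls. Rpl7l1 (-0.05 ± 0.07) and Rps6 (-0.14 ± 0.07) missed the threshold. Without E14 control C 23 members fell and without E14 control B 57. A fit on the control samples alone gave 29 and library sizes scaled on other short genes gave 24. Over all genes, 671 of 15192 fell and 1394 rose in the fit on controls alone. With the scaling on short genes 561 of 16180 fell and 4053 rose. This comparison and both NRG1 comparisons share the control samples. In it, 9 of 9 mesenchyme markers rose (median 2.83), with a summed share of 0.526 and 0.165% in E14 controls against 0.04997, 0.02097 and 0.0621% in E13 controls, as did 6 of 6 endothelial and 5 of 7 erythroid markers. Between NRG1 and control at E14 none of the 9 mesenchyme markers was called by edgeR (0 at an unadjusted p under 0.05), with 0.461, 0.379 and 0.459% with NRG1 and 0.526 and 0.165% in controls. The part of other cell types in the members' values was not tested.

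TORIN1 for 72 h gave no called member. By edgeR's quasi-likelihood test 0 of 80 members rose and 0 fell, where 2.46% of all genes rose and 3.36% fell. At an unadjusted p under 0.05 there was 1 in each direction, and DESeq2 called 1 lower. The median was 0.35, and this rested on TORIN1 A, since without it the median was 0.05. The summed share was 10.9, 5.74, 5.97 and 5.97% with TORIN1 and 5.89, 5.48, 5.44 and 5.004% with DMSO. Acinar secretory products held 1.73, 2.29, 0.798 and 1.36% with TORIN1 and 4.79, 4.96, 4.38 and 3.19% with DMSO. With these left out, the members held 11.1, 5.87, 6.02 and 6.05% with TORIN1 and 6.18, 5.77, 5.69 and 5.17% with DMSO. Of the cell cycle markers Ccna2, Ccnb1, Cdc20 and Cdk1 were called lower and the others were not called. The part of these differences in the members' values was not tested. Rplp0 had 5270, 2809, 2681 and 2769 CPM with TORIN1 and 2833, 2648, 2694 and 2344 CPM with DMSO, so that TORIN1 B to D lie among the DMSO samples. Rps6 had 1823, 988, 953 and 976 CPM with TORIN1 and 935, 901, 893 and 857 CPM with DMSO, and all TORIN1 samples lie above all DMSO samples. Its log2 fold change was 0.40 ± 0.21 (adjusted p = 0.285), and 0.12 without A (adjusted p = 0.152).

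The paralogs Rps27l and Rpl7l1 lay lower in most TORIN1 samples. Rps27l had 164, 99.9, 86.7 and 96.0 CPM with TORIN1 and 194, 175, 171 and 145 CPM with DMSO. It missed the threshold with all samples (-0.62 ± 0.20, adjusted p = 0.0986) and passed without A (-0.86, adjusted p = 0.000589). Rpl7l1 had 149, 106, 96.5 and 108 CPM with TORIN1 and 132, 126, 120 and 120 CPM with DMSO, with -0.12 ± 0.13 in all samples and -0.27 (adjusted p = 0.0122) without A. Without A the members called lower were Rps27l, Rpl7l1 and Rpl41 (-0.27, adjusted p = 0.0437), 3 of 80, where 14% of all genes then fell. None of 77 mitochondrial ribosomal protein genes was called (median -0.10; 0 higher and 2 lower at an unadjusted p under 0.05), and other short genes had a median of -0.02. Of the 11 regulators Pdcd4, an inhibitor of the translation initiation helicase, fell (-0.50 ± 0.09, adjusted p = 0.0149), and by edgeR none of the 21 translation factors and other TOP messengers (3 higher at an unadjusted p under 0.05) or of the 7 chaperones (1 higher) was called.

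In the Erbb3 set the targeted gene had 35.1, 32.02, 73.6 and 68.6 CPM in KO glands and 89.7, 69.6, 124 and 118 CPM in WT glands (-0.94 ± 0.29, adjusted p = 0.0619). KO 3 lies above WT 2, and counts per gene cannot show a deleted part of it. No member was called between KO and WT glands by edgeR, where 2.83% of all genes rose and 4.2% fell. The median was 0.41, and 78 of 79 members had a positive log2 fold change, 37 of them at an unadjusted p under 0.05. The members share the same libraries, so these counts are not independent, and their shares over all genes are not given here. DESeq2 called 24 members higher, among 1256 of all 14136 genes with an adjusted p. The summed share was 9.26, 8.23, 9.80 and 8.91% in KO glands and 8.52, 9.09, 5.89 and 6.29% in WT glands, so that WT 1 and WT 2 lie within the KO range and WT 3 and WT 4 below it. Without WT 2 45 members rose, with a median of 0.58, where 13.2% of all genes then rose. Without WT 1 none did by edgeR, where 0.998% of all genes rose. With no filter on low counts 15 members rose, where 970 of all 29701 genes rose and 1151 fell.

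The lowest adjusted p among the members in KO glands was that of Rpl13. It had 2736, 2324, 2794 and 2525 CPM in KO glands and 1379, 2282, 1315 and 1548 CPM in WT glands (0.67 ± 0.19, adjusted p = 0.0503). WT 2 lies just below the KO samples and the other WT samples far below them. Rpl35 had 289, 215, 204 and 229 CPM in KO glands and 98.0, 209, 63.2 and 102 CPM in WT glands (0.99 ± 0.30, adjusted p = 0.0625). Rps29 had 677, 509, 701 and 572 CPM in KO glands and 127, 571, 305 and 373 CPM in WT glands (0.84 ± 0.35, adjusted p = 0.133). In Rpl35 and Rps29 WT 2 is at the level of the KO samples and the other WT samples are lower. Rpl22l1 had 39.7, 35.5, 39.9 and 40.4 CPM in KO glands and 6.997, 40.6, 22.1 and 24.9 CPM in WT glands, with WT 1 lowest. Other short genes had a like median, 0.40, with 92 of 951 higher and 7 lower, and mitochondrial ribosomal protein genes a median of 0.37 with 4 of 77 higher. Other short genes together held 7.19, 6.53, 7.07 and 6.80% of the counts in KO glands and 5.59, 6.73, 4.58 and 4.82% in WT glands, in the order of the members' own shares among WT 2, WT 1, WT 4 and WT 3. In KO glands 3 of 8 macrophage markers rose (C1qa, C1qb and C1qc), and so did 2 of 8 erythroid markers (Hba-x and Hbb-y) and 1 of 9 mesenchyme markers (Twist1), while 1 of 6 endothelial markers (Tek) fell. Epithelial markers held 0.156 to 0.240% in KO glands and 0.248 to 0.369% in WT glands, with 1 of 7 called lower, and 4 of 8 tested genes of acinar secretory products fell. The part of these differences in the members' values was not tested.

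In the NRG1 culture 68 members were listed. Day 3 against day 2 raised Rpl10, Rpl7 and Rpl3, 3 of 68 members, where 24% of all listed genes rose and 25.3% fell, and the median was 0.04. None fell by edgeR, also at an unadjusted p under 0.05, and DESeq2 called 4 lower. Rpl3 had 1235 and 1270 CPM on day 3 and 1098 and 1102 CPM on day 2 (0.19 ± 0.06, adjusted p = 0.0291). These calls were lost in part or whole when any single library was left out. Day 4 against day 3 raised 64 of 68 members, all 27 of the small subunit and 37 of 41 of the large subunit, where 24.6% of all listed genes rose and 22% fell, and the median was 0.30. None fell by edgeR, at an unadjusted p under 0.05 or by DESeq2. The members not called were Rpl24, Rpl28, Rpl29 and Rpl34. Rplp0 had 3769 and 4013 CPM on day 4 and 2930 and 3033 CPM on day 3 (0.38 ± 0.06, adjusted p = 0.00548). Rpl39 had 347 and 378 CPM on day 4 and 236 and 256 CPM on day 3 (0.56 ± 0.07, adjusted p = 0.00304). Rpl30 (0.58 ± 0.11), Rps24 (0.50 ± 0.07), Rpl32 (0.48 ± 0.07) and Rps7 (0.48 ± 0.06) were the other largest rises, and Rps27l (0.41 ± 0.07) and Rps6 (0.19 ± 0.06) rose too.

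The day 4 count was 37 without sample 1 of day 3, where 10.4% of all listed genes then rose. Other short genes rose in 146 of 323 cases, with a median of 0.25, and with library sizes scaled on them 7 members rose. In that fit 296 of all 5171 listed genes rose and 2293 fell. Of 15 listed translation factors and other TOP messengers 9 rose, among them Tpt1 (0.44 ± 0.10) and Eef1b2 (0.37 ± 0.06). Acinar secretory products held 9.10 and 8.93% of the counts on day 4, against 3.59 and 3.93% on day 3 and 0.754 and 0.926% on day 2. In day 4 against day 3, 4 of 5 listed macrophage markers rose (C1qa, C1qb, C1qc and Adgre1), both listed mesenchyme markers fell (Pdgfra and Pdgfrb), 2 of 6 epithelial markers fell (Cdh1 and Grhl2) and 2 of 6 cell cycle markers rose (Bub1 and Ccna2). Their part in the members' rise was not tested. The sources used here do not say how the listed genes were picked, and the background of this table holds for listed genes alone.

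**Figure D5:**
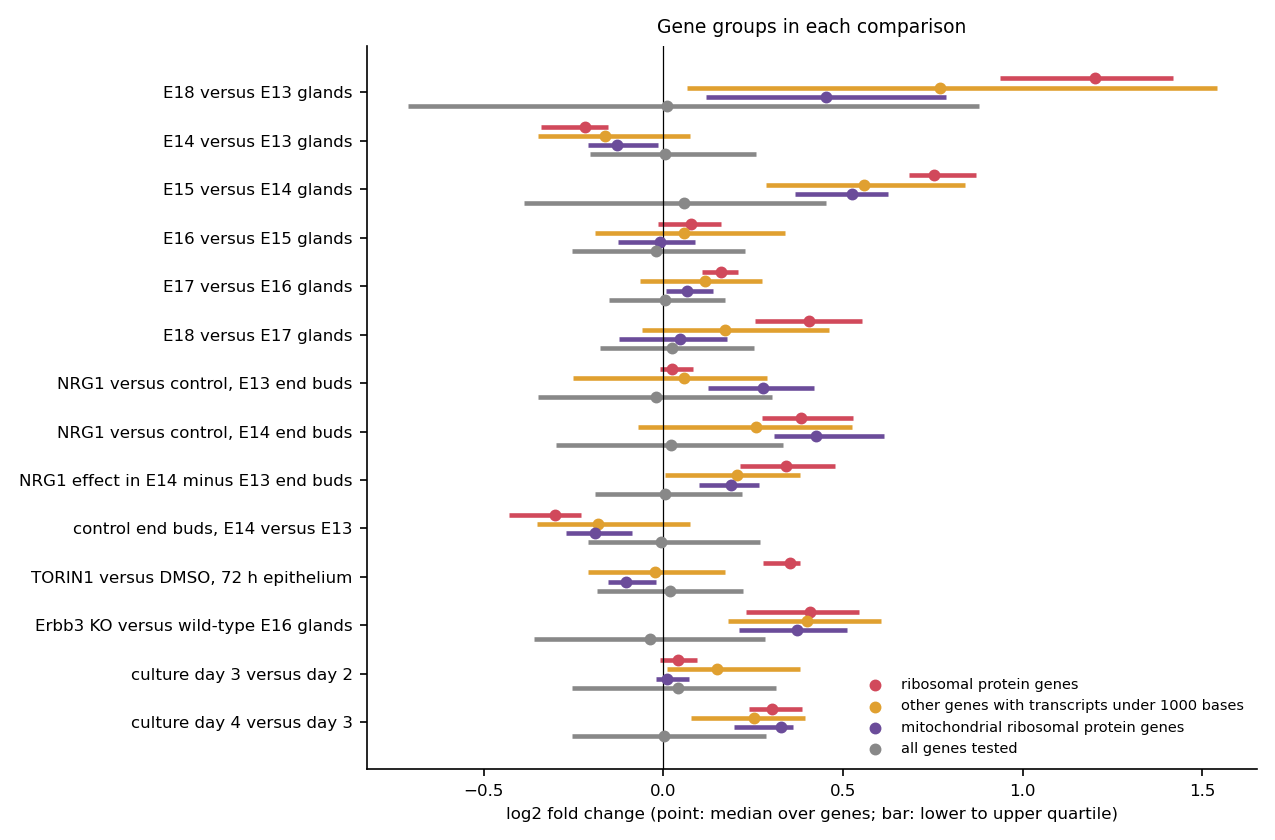
For each comparison the median (point) and the lower to upper quartile (bar) of the log2 fold change are drawn for the members, for other genes with transcripts under 1000 bases, for mitochondrial ribosomal protein genes and for all tested genes. Members lie farthest from zero in E18 against E13 glands (median 1.20) and near zero with NRG1 at E13 (0.02), and other short genes lie on the same side as the members in most comparisons but near zero with TORIN1 (-0.02).

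The members with and without the annotated C and T run at the start were set side by side. The 13 members with it had a median log2 fold change of 1.45 in E18 against E13 glands, against 1.06 for the 48 tested members whose matched starts lack it. In E15 against E14 glands the medians were 0.84 with the run and 0.74 without it, while 8 of 13 with the run and 41 of 48 without it were called higher. In E18 against E17 glands the medians were 0.52 and 0.34. In KO glands they were 0.53 for the 13 members with the run and 0.38 for the 46 without it. With NRG1 at E14 the medians were 0.43 for the 13 members with the run and 0.37 for the 47 without it, and with TORIN1 they were 0.36 and 0.34. The median with the run was the lower one in E17 against E16 glands (0.14, and 0.16 without it). So it was with NRG1 at E13 (0.023 and 0.030) and in culture day 3 against day 2 (0.022 and 0.056). In E14 against E13 the medians were -0.22 and -0.21 in glands, and -0.36 and -0.30 in control end buds. The NRG1 effect was called higher at E14 than at E13 in 4 of the 13 with the run and 6 of the 47 without it. These are descriptions with no test. Members with and without the run were not matched for transcript length. Of those shown with the run, Rps27 (345 bases), Rpl38 (367.5), Rps21 (394), Rplp2 (449) and Rps18 (543.5) lie under the members' median of 774. Rpl15 (842.5) and Rps6 (878) lie above it. The medians for E18 glands include E18 D.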

How the data were processed

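Per the submitters' processing notes, reads were handled with fastp, STAR and featureCounts on mm10. Their versions and settings, the strand and the treatment of reads matching several places are not stated there. Per the labels' protocols, total RNA went into NEBNext Ultra libraries. All 5 deposited tables hold raw counts per gene from the authors. In the culture table, 8 symbols turned into dates (0.123% of counts) were left out. Each table was fitted alone with edgeR 4.0.16 in R 4.3.3 (limma 3.58.1), with its default filter on low counts, TMM scaling and the robust quasi-likelihood test, all groups in 1 fit, and p-values adjusted by Benjamini and Hochberg over all tested genes (threshold 0.05). Fold changes are log2, with standard errors. Values printed per sample are CPM of TMM-scaled library sizes. DESeq2 1.42.0, other scalings, no filter, a replicate block and leaving out each sample were alternatives. The code was tested on simulated data.

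Gene types, positions and transcript lengths came from GENCODE M21 (GRCm38), and promoter windows from RefSeq. Replicates of a group differed beyond sampling noise in all 73 pairs (chi-square per gene 3.43 to 228), so none was counted as a repeat. At these depths counting error is small for most members, and the spread between samples sets the errors. The members, gene lists and tests were chosen with earlier results of these data known. Genes named are the paralogs with their partners, the stalk, Rpsa, Rps6, Rpl5, Rpl11, Rpl10a and Rps19, then, per comparison, up to 5 called members with the largest rise and fall at a mean of at least 10 CPM, members that went against most, and up to 4 called genes of each other list. Rpl41 without TORIN1 A, the called cell type markers, and Rpl13, Rpl35 and Rps29 in the Erbb3 set were chosen after their values were seen. A gene of the list of other ribosomal and ribosome-bound proteins is not reported here.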

Additional observations from a re-analysis of the deposited data

Results flagged for a closer look

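The summed share and the levels of chosen members were checked within each group of 4 samples, 150 checks in all. In these, 29 values lay farther from the other samples than Dixon's 95% limit allows. Chance alone gives about 1 in 20 for independent checks. These are not independent, since members of the same library moved together. The most came from E18 gland D. Its summed share of counts was 18.2%, and its levels were 8933 CPM for Rplp0, 16416 for Rplp1, 5866 for Rplp2, 8254 for Rpsa, 2080 for Rps6, 3673 for Rps27, 709 for Rps27l, 1005 for Rpl22, 315 for Rpl22l1, 1813 for Rps2, 476 for Rps3a1, 544 for Rpl26 and 2684 for Rpl35a. TORIN1 sample A stood apart with a summed share of 10.9% and with 5270 CPM for Rplp0, 2785 for Rplp1, 913 for Rplp2, 3763 for Rpsa, 1823 for Rps6, 920 for Rps27, 164 for Rps27l, 808 for Rpl22 and 41.9 for Rpl22l1. Single values apart from their group were Rplp2 in WT 2 (1106 CPM), Rps27 and Rpl22l1 in E17 gland C (1721 and 165 CPM), Rpl22l1 in KO 2 (35.5 CPM, the lowest of its group) and Rps3a1 in E16 gland D (740 CPM).

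The NRG1 effect differed between E14 and E13 end buds, by the test of the difference itself, in 16 members. The differences were 0.98 for Rpl35a, 0.93 for Rps27, 0.79 for Rpl39, 0.76 for Rpl22l1 and 0.75 for Rps21 on the log2 scale.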

How the results depend on the processing

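Over 294 results for named members and 4266 alternative values of them, 3977 kept direction and side of the threshold, 206 kept direction but lost the call, 69 gained it and 14 reversed. All 14 reversals came with library sizes scaled on other short-transcript genes, an alternative chosen after seeing the data: Rpl7l1 in E15 against E14 glands (-0.28), Rpl10 (-0.089), Rpl22 (-0.035), Rpl3 (-0.22), Rpl5 (-0.036), Rpl7 (-0.18), Rplp0 (-0.031), Rps4x (-0.049) and Rps6 (-0.046) with NRG1 in E14 end buds, and Rpl10a (-0.032), Rpl22 (-0.0068), Rpl3 (-0.064), Rps6 (-0.056) and Rpsa (-0.014) in culture day 4 against day 3. That scaling shifts the median over all genes by -0.60 in E18 against E13 glands, -0.55 in E15 against E14, -0.44 in KO glands, -0.31 with NRG1 at E14, -0.24 in culture day 4, -0.23 in the difference between stages, -0.15 in culture day 3, 0.21 in E14 against E13 glands and 0.17 between controls, and library totals shift it by -0.34 in E18 against E13 and -0.21 in E18 against E17. Over all 16521 gland genes the short-gene scaling gave 3079 higher and 8726 lower in E18 against E13, and 827 and 7661 in E15 against E14. Over all 16180 end bud genes it gave 1152 and 6190 with NRG1 at E14, and 94 and 2474 for the difference between stages. Members higher and lower under it were 50 and 2 in E18 against E13 and 17 and 2 in E15 against E14. They were 17 and 4 with NRG1 at E14 and 10 and 1 for the difference between stages. It gave 2 lower in E14 against E13, 1 higher in E17 against E16, 2 lower in E18 against E17, 5 lower with NRG1 at E13, 24 lower between controls, 1 lower with TORIN1, 0 higher and 8 lower in culture day 3, and 7 higher in culture day 4.

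Library totals gave 2 lower in E18 against E13, 1 lower in E16 against E15, 2 lower in E18 against E17, 2 lower with NRG1 at E13, 1 higher in KO glands, and 0 higher and 1 lower in culture day 3. Totals without secretory products gave 2 lower in E18 against E13 and against E17. DESeq2's size factors in edgeR gave 1 higher in KO glands and 0 higher and 1 lower in culture day 3. No filter gave 2 lower in E18 against E13, 1 higher in E16 against E15, 0 higher and 0 lower in E17 against E16, and 15 higher in KO glands. Fits on the compared groups alone gave 7 lower in E14 against E13, 1 lower in E16 against E15, 0 higher in E18 against E17, 29 lower between controls and 6 higher in culture day 3. DESeq2 gave 2 lower with NRG1 at E13, 33 higher for the difference between stages, 1 lower with TORIN1, 24 higher in KO glands and 4 lower in culture day 3.

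Correlations of the deviations of same-numbered samples were -0.45 to 0.43 over 43 pairs, and in 0 of 13 comparisons was every pair over 0.1. In TORIN1 against DMSO they were 0.36, 0.25, -0.12 and 0.43 for A to D. In groups this small such correlations cannot decide whether the numbers pair samples. With a replicate block, 2 members were lower in E18 against E13, 0 lower with NRG1 at E13, 1 lower with TORIN1 and 2 higher in KO glands, and other counts stayed within 1.5 times. Crossing the block for culture day 4, where the correlation was -0.45, gave 64 higher.

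Leaving out single libraries gave 69 to 77 higher and 1 to 2 lower in E18 against E13, 1 to 3 lower in E14 against E13, 40 to 70 higher in E15 against E14, 0 to 2 higher and 0 to 1 lower in E16 against E15, 0 to 1 higher and 0 to 1 lower in E17 against E16, 1 to 7 higher and 1 to 2 lower in E18 against E17, 0 to 3 lower with NRG1 at E13, 42 to 66 higher with NRG1 at E14, 4 to 42 for the difference between stages, 23 to 57 lower between controls, 0 to 3 lower with TORIN1, 0 to 45 higher in KO glands, 0 to 1 higher in culture day 3 and 37 to 65 higher in culture day 4. The causes of these changes were not tested.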
